A study of Mus musculus with 60 samples.

Results

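The genes described here encode the enzymes and partner proteins that build coenzyme Q in mitochondria. The 10 members, chosen by name, were Pdss1, Pdss2, Coq2, Coq3, Coq4, Coq5, Coq6, Coq7, Coq8a and Coq9, of 20423 genes in the deposited count table. All 10 were in the table and all 10 passed the filter on low counts in each region. RNA was sequenced from the cerebellum, striatum and cerebral cortex of mice homozygous for PON2 deficiency and of their wild-type littermates, born to heterozygous parents on a C57BL/6J background. Each of the 12 groups, PON2-deficient males, wild-type males, PON2-deficient females and wild-type females in each of the 3 regions, held 5 libraries. All mice had been through behavioural tests, were 3 to 4 months old and came from rolling cohorts that the labels do not assign to libraries. The labels name no promoter or Cre line for the deficiency. Paraoxonase 2 (PON2) is a lactonase of the inner mitochondrial membrane that binds coenzyme Q, and the comparison asks whether the genes that make this lipid differ in mRNA level when PON2 is missing.

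Coenzyme Q is a quinone ring with a long isoprenoid tail, and it carries electrons from complexes I and II and from several dehydrogenases to complex III of the respiratory chain. The tail is assembled from products of the mevalonate pathway and joined to a benzoate ring, after which an assembly of proteins on the inner membrane hydroxylates, decarboxylates and methylates the ring. Inherited defects of the pathway in humans affect kidney, muscle and brain, and loss of COQ8A is known for ataxia with atrophy of the cerebellum.

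Library totals lay between 26091911 and 28125224 counts. Pon2 itself checked the labels: it stood at 0.457 to 1.26 CPM (counts scaled by library totals with TMM factors) in PON2-deficient cerebella, against 39.2 to 51.3 CPM in wild-type cerebella, at 2.54 to 6.91 CPM in PON2-deficient striata, against 44.7 to 56.8 CPM in wild-type striata, and at 2.34 to 5.62 CPM in PON2-deficient cortices, against 50.2 to 58.9 CPM in wild-type cortices. Markers fitted the labelled tissue. The summed level of 7 markers of cerebellar granule and Purkinje neurons was at least 5765 CPM in cerebellum and at most 331 CPM elsewhere. For 7 markers of striatal projection neurons it was at least 3625 CPM in striatum and at most 1236 CPM elsewhere, and for 7 markers of cortical excitatory neurons at least 1542 CPM in cortex and at most 884 CPM elsewhere. A single library, that of striatum PON2-deficient male 5, differed from all others. Its slope of log2 deviation on log2 transcript length was -0.24, against -0.095 to 0.039 in the other 59 libraries, and its mean deposited weight was 0.0527 of the striatum median, against at least 0.324 in the others. The log2 changes of the members with PON2 deficiency in striatum, over both sexes, are given with and without it. Interval bounds and the medians of the other gene lists in striatum are given with it only. In whole tissue, fewer cells of a type and less RNA per cell cannot be told apart.

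Positions are given on GRCm38 (GENCODE M21), and all members are protein-coding. Pdss1 (ENSMUSG00000026784.14, chr2:22895522-22940266, plus strand) and Pdss2 (ENSMUSG00000038240.13, chr10:43221486-43464882, plus strand) encode the subunits of the synthase that makes the tail. Coq2 (ENSMUSG00000029319.8, chr5:100654723-100675140, minus strand) encodes the transferase that joins tail and ring. Coq6 (ENSMUSG00000021235.13, chr12:84361657-84373796, plus strand) and Coq7 (ENSMUSG00000030652.11, chr7:118509659-118533356, minus strand) encode ring hydroxylases, while Coq3 (ENSMUSG00000028247.2, chr4:21879673-21912162, plus strand) and Coq5 (ENSMUSG00000041733.10, chr5:115279666-115296972, plus strand) encode the O- and C-methyltransferases. Coq4 (ENSMUSG00000026798.10, chr2:29787493-29797935, plus strand) encodes a protein that the assembly needs to hold together. Coq8a (ENSMUSG00000026489.13, chr1:180165238-180199602, minus strand) encodes a protein of the atypical kinase family with ATPase activity, and Coq9 (ENSMUSG00000031782.15, chr8:94838321-94854895, plus strand) a lipid-binding partner of Coq7.

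Some members overlap counted genes on the opposite strand, and the sources used here do not say whether counting used strand. Coq4 overlaps Trub2 by 1010 bp, the longest overlap with a protein-coding gene. Coq8a overlaps Cdc42bpa by 366 bp, Pdss1 overlaps Abi1 by 194 bp, Coq6 overlaps Fam161b by 177 bp and Coq9 overlaps Ciapin1 by 38 bp. Coq2 overlaps the antisense gene Gm15777 by 4282 bp. These overlaps are of whole gene spans with introns, and the exonic part was not computed. Reads from any shared exon could have been assigned to either gene, so the values of these 6 members may carry that uncertainty.

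Pdss1 and Coq4, both on chromosome 2, had the largest differences between regions in either direction, and the 250 bases before their starts are shown for that reason (RefSeq, GRCm38.p6, 5′ to 3′). The window of Pdss1 (chr2:22895272-22895521, plus strand) holds an ETS core, CCGGAA, in capitals, 132 bases before the start. The window of Coq4 (chr2:29787243-29787492, plus strand) holds an E-box, CACGTG, in capitals, 56 bases before the start.
Pdss1: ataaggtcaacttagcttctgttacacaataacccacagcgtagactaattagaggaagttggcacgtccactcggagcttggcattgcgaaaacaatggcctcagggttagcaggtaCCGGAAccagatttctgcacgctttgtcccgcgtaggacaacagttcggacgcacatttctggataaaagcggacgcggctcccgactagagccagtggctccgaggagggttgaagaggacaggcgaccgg
Coq4: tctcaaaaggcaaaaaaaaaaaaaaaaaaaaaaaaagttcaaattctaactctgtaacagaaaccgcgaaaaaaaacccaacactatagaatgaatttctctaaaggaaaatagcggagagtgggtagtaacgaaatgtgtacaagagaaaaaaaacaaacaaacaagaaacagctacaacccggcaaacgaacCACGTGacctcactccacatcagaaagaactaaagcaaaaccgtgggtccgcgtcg

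Searched on both strands, CCGGAA was in 4 of the 11 windows of the members (Pdss1, Pdss2, Coq3 and Coq6) and in 12.03% of all 32851 windows of this length, and CACGTG was in 1 of 11 (Coq4) and in 6.021% of all. The GC box GGGCGG was in 5 of 11 (32.74% of all), the CCAAT box CCAAT in 3 of 11 (33.85%), the NRF1 core TGCGCA in 2 of 11 (6.432%) and the YY1 core AAGATGG in 0 of 11 (4.487%). Each window shown held 1 of these motifs, and in the window of Coq6 a GC box and a CCAAT box shared bases. The window of Coq4 had 37.2% G and C and that of Pdss1 53.6%, against a median of 52.4% over all windows. Coq5 had no window, while Coq3 and Coq8a each had more than 1, and the windows of Coq3 shared bases. These matches describe letters in the windows and were not tested for binding.

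Per length of the longest transcript, the genes for joining the tail (Coq2), for the lipid-binding partner (Coq9) and for the C-methyltransferase (Coq5) had the highest levels in all 3 regions, and Pdss2 had the lowest. Expressed as CPM per kilobase of the longest annotated transcript, Coq2 stood at 24.0 ± 1.76 in cerebellum, 28.2 ± 2.69 in striatum and 32.6 ± 1.93 in cortex (SD, n = 20 libraries each). Coq9 stood at 29.2 ± 2.15, Coq5 at 18.9 ± 0.728 and Coq8a at 11.2 ± 1.59 CPM per kilobase in cerebellum. The order of Coq2 and Coq9 thus differed between regions, with Coq9 first in cerebellum and Coq2 first in striatum and cortex.

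Below these 4 came a middle group with close levels. In cerebellum Pdss1 (7.66 ± 0.660), Coq7 (7.29 ± 0.687), Coq6 (6.72 ± 0.723) and Coq3 (6.34 ± 0.530 CPM per kilobase) each differed from the next by less than the larger SD, and Coq4 (3.04 ± 0.551) and Pdss2 (2.11 ± 0.262) were lower. In cortex Coq3 (5.59 ± 0.455), Coq4 (5.20 ± 0.495), Coq6 (5.18 ± 0.473) and Pdss1 (4.90 ± 0.328 CPM per kilobase) each differed from the next by less than the larger SD, and Pdss2 was at 2.60 ± 0.370. Coq7 was higher in cortex, at 6.61 ± 0.529 CPM per kilobase. Coq8a, at 7.58 ± 1.33 CPM per kilobase there, differed from Coq7 by less than its own SD. In striatum Coq6, Coq3, Coq4 and Pdss1 each differed from the next by less than the larger SD, with Pdss1 last at 4.54 ± 0.482 CPM per kilobase. Coq7 stood above them at 6.57 ± 1.399 CPM per kilobase, an SD that rests on PON2-deficient male 5. Without that library, a choice made after seeing the data, Coq7 was at 6.28 ± 0.486 and Coq6 at 5.18 ± 0.563 CPM per kilobase (SD, n = 19), a gap wider than either SD. The scale depends on the transcript chosen: with the mean annotated length in place of the longest, Coq9 came first in all 3 regions (70.6 in cerebellum, 54.3 in striatum and 59.5 in cortex). Coq8a then stood above Coq5, at 47.4 against 27.4 in cerebellum, 39.3 against 24.0 in striatum and 32.04 against 23.1 CPM per kilobase in cortex.

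**Figure D1:**
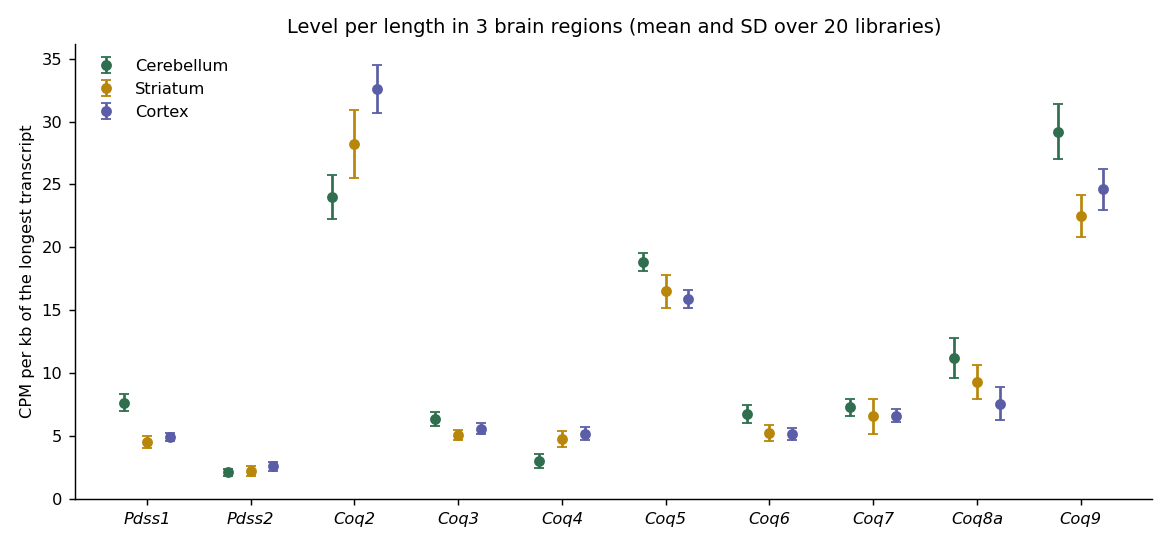
Mean level of each member in CPM per kilobase of its longest transcript, with SD over 20 libraries, in cerebellum, striatum and cortex. Coq2, Coq9 and Coq5 stand above the other members in each region and Pdss2 is lowest.

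Between cerebellum and cortex, edgeR called all 10 members at an adjusted p under 0.05, 7 higher and 3 lower in cerebellum. Of all 20387 genes tested, 79.6% were called in this comparison (40.1% higher and 39.5% lower), and 80.5% had an unadjusted p under 0.05, as did all 10 members, so a call by itself does not set the members apart. Their median absolute log2 difference was 0.34, against 0.46 over all genes. The members did not move one way, and the genes for the subunits of the tail synthase lay on opposite sides. Those for the ring hydroxylases and methyltransferases (Coq3, Coq5, Coq6 and Coq7) were higher in cerebellum, while Coq4 was lower. The labels do not say whether equal replicate numbers in different regions are 1 mouse, and the neuron markers above differed between the regions with no overlap of their ranges. Their part in these differences was not tested.

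Among the genes for the tail, Pdss1 spanned 12.5 to 18.4 CPM in cerebellum (median 14.9), against 8.60 to 10.5 CPM in cortex (median 9.52). The ranges did not overlap, and the log2 difference was 0.64 (SE 0.040, edgeR adjusted p = 4.87e-21). Its partner Pdss2 went the other way, at 7.15 to 10.6 CPM in cerebellum (median 8.22), against 7.77 to 14.0 CPM in cortex (median 10.4). These ranges overlapped widely (log2 -0.30, SE 0.070, edgeR adjusted p = 0.000108). Coq2, which joins tail and ring, was at 36.0 to 47.5 CPM in cerebellum (median 42.1), against 48.9 to 62.1 CPM in cortex (median 56.5). Every cerebellum library was below every cortex library (log2 -0.44, SE 0.033, edgeR adjusted p = 9.32e-18).

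The 4 genes for ring hydroxylases and methyltransferases were all higher in cerebellum. The hydroxylase gene Coq6 was at 14.8 to 22.5 CPM in cerebellum (median 19.2), against 12.7 to 18.4 CPM in cortex (median 14.6), a log2 difference of 0.37 (SE 0.048, edgeR adjusted p = 7.02e-10). The methyltransferase gene Coq5 was at 35.9 to 41.1 CPM in cerebellum (median 38.6), against 29.9 to 35.1 CPM in cortex (median 32.4), with no overlap (log2 0.25, SE 0.027, edgeR adjusted p = 9.76e-12). For Coq3, the O-methyltransferase gene, cerebellum held 14.7 to 19.9 CPM and cortex 12.9 to 17.3 CPM (log2 0.18, SE 0.037, edgeR adjusted p = 1.54e-05). Coq7 had the smallest difference of the 10, with overlapping ranges of 19.4 to 28.4 CPM in cerebellum and 16.8 to 23.9 CPM in cortex. Its log2 difference of 0.14 (SE 0.056, edgeR adjusted p = 0.0188) lost its call without the libraries numbered wild-type male 4 (log2 0.10, adjusted p = 0.0832).

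The genes for the partner proteins diverged. Coq4 had the largest difference of all members and was lower in cerebellum, at 7.42 to 13.3 CPM (median 8.70), against 12.8 to 17.7 CPM in cortex (median 16.2). The 2 highest cerebellum libraries exceeded the lowest cortex library, and the log2 difference was -0.77 (SE 0.063, edgeR adjusted p = 2.10e-16). Coq8a was higher in cerebellum, at 35.1 to 58.2 CPM (median 43.6), against 21.4 to 42.2 CPM in cortex (median 31.1). Its ranges overlapped, and it had the widest spread between libraries of one group among the members (within-group SD 0.23 on the log2 scale, log2 difference 0.56, SE 0.071, edgeR adjusted p = 3.83e-10). Coq9, the lipid-binding partner, was at 44.0 to 61.1 CPM in cerebellum, against 38.1 to 49.3 CPM in cortex (log2 0.25, SE 0.034, edgeR adjusted p = 4.58e-09).

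**Figure D2:**
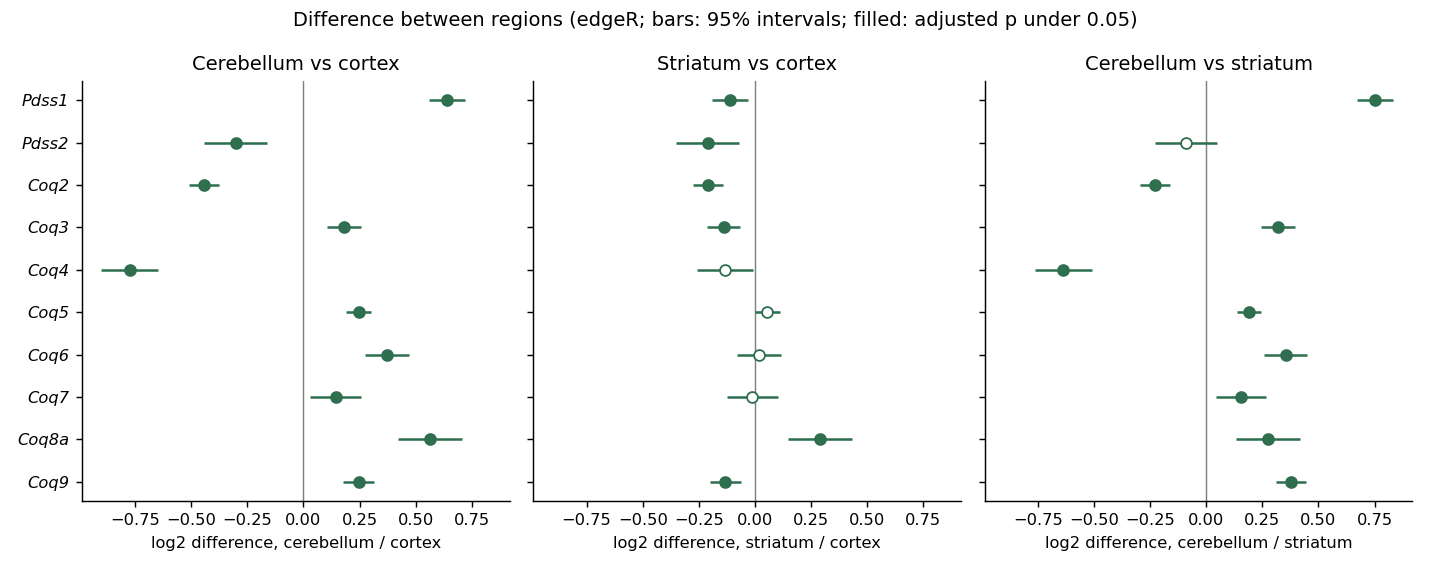
Log2 differences of the 10 members between regions with 95% intervals from 1 edgeR fit over 60 libraries, filled where the adjusted p was under 0.05. Pdss1 and Coq8a lie to the right and Coq4 and Coq2 to the left in cerebellum against cortex, while differences between striatum and cortex are smaller.

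In 3 members, Pdss1, Coq2 and Coq5, the cerebellum and cortex ranges did not overlap, as in 31.3% of all genes. Between cerebellum and striatum this held for Pdss1 alone among the members, against 26.3% of all genes, and between striatum and cortex for 0 of the 10, against 7.72% of all genes.

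Striatum and cortex were closer. Of the 10 members edgeR called 6, with Coq8a higher in striatum and Pdss1, Pdss2, Coq2, Coq3 and Coq9 lower, against 57% of all genes called (28.8% higher and 28.2% lower). At an unadjusted p under 0.05 there were 8 members, against 60.9% of all genes. Their median absolute log2 difference was 0.13, and 0.21 over all genes. Coq8a was at 23.4 to 45.9 CPM in striatum (median 38.4), against a median of 31.1 CPM in cortex (log2 0.29, SE 0.071, edgeR adjusted p = 0.000451). Its lowest striatum value came from PON2-deficient male 5, and without that library the log2 difference was 0.32. Coq2 was at 43.2 to 63.4 CPM in striatum (median 49.0), against a median of 56.5 CPM in cortex (log2 -0.21, SE 0.033, edgeR adjusted p = 2.47e-07). The other 4 that were lower differed by log2 -0.21 (Pdss2) to -0.11 (Pdss1), with edgeR adjusted p-values up to 0.0174.

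The call of Pdss1 between striatum and cortex ended without the libraries numbered wild-type male 4 (adjusted p = 0.0507) or PON2-deficient female 5 (adjusted p = 0.0557). Coq4 (log2 -0.13, SE 0.062, edgeR adjusted p = 0.0600) and Coq5 (log2 0.056, SE 0.028, edgeR adjusted p = 0.0795) did not pass. Coq6 had a log2 difference of 0.019 with a 95% interval from -0.079 to 0.12. For Coq7 the log2 difference was -0.012 with striatum PON2-deficient male 5 and -0.070 without it (edgeR adjusted p = 0.138).

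Set against striatum, cerebellum had 7 members higher and 2 lower by edgeR, against 79.8% of all genes called (39.7% higher and 40.2% lower). The same 9 had an unadjusted p under 0.05, against 80.6% of all genes. Pdss1 again differed the most, with a log2 difference of 0.75 (SE 0.040, edgeR adjusted p = 5.54e-24), and Coq4 was lower by -0.64 on the log2 scale (SE 0.063, edgeR adjusted p = 2.11e-13). Coq9, Coq6 and Coq3 were higher by log2 0.38, 0.35 and 0.32 in cerebellum. Pdss2 did not pass (log2 -0.091, 95% interval -0.23 to 0.050, edgeR adjusted p = 0.231). Pdss1 thus ordered the regions as cerebellum, then cortex, then striatum, and Coq8a as cerebellum, then striatum, then cortex. For Coq4 and Coq2 cerebellum was lowest, and cortex and striatum could be ordered by a call for Coq2 only.

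**Figure D3:**
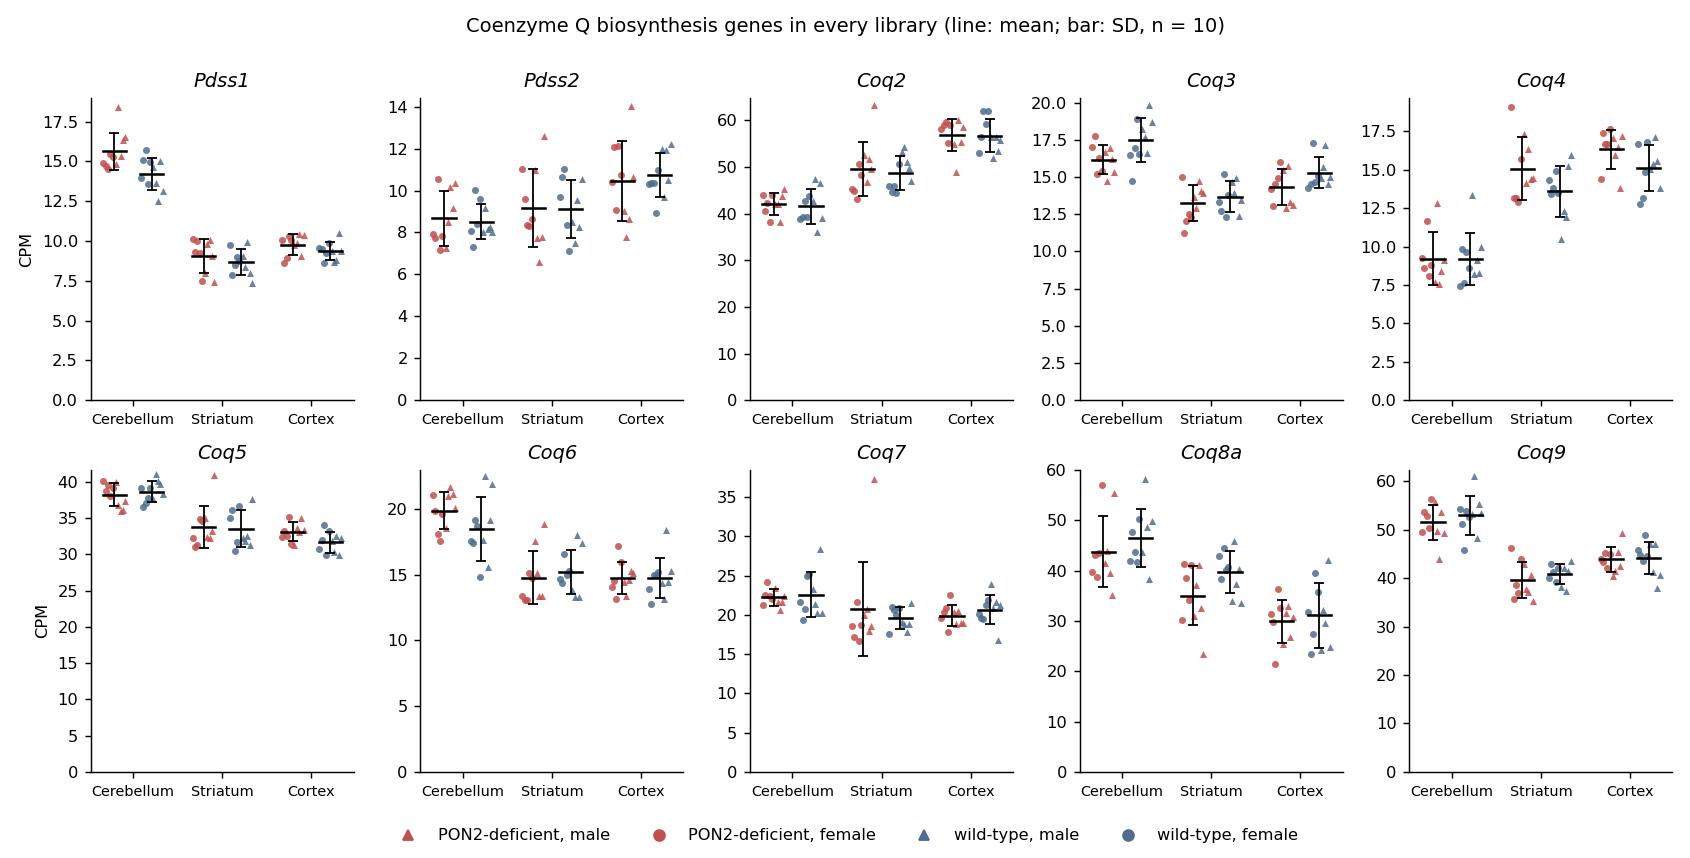
CPM of each member in every library, by region with PON2-deficient libraries (red) left of wild-type libraries (blue), triangles for males and circles for females. Lines and bars are means and SD over 10 libraries, and in every panel the genotypes overlap within each region.

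With PON2 deficiency, no member passed the threshold in any region. In cerebellum edgeR called 0 of 10 members as the mean of both sexes, against 0.0321% of 18710 genes, and 2 members had an unadjusted p under 0.05, against 11.1% of all genes. In striatum it called 0 of 10, against 0.0105% of 18962 genes, with 0 of 10 at an unadjusted p under 0.05 (4.94% of all genes). With the replicate block that count was 1 in striatum, for Coq8a (log2 -0.19, SE 0.072, edgeR adjusted p = 0.860). In cerebellum it was 1 with the block, for Pdss1 (edgeR adjusted p = 0.307). The shares of all genes given here are without the block and were not computed with it. In cortex edgeR called 0 of 10, against 0.0316% of 18972 genes, with 0 of 10 at an unadjusted p under 0.05 (11.4% of all genes). DESeq2 on the counts and limma on the deposited log2 values also called 0 in each of these 3 comparisons. In each region the CPM ranges of the genotypes overlapped for all 10 members, as for all but 0.0107% of genes in cerebellum and all but 0.0105% in striatum and cortex.

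In cerebellum 5 were above and 5 below 0, with a median log2 change of -0.0076, and in cortex 5 were above and 5 below, with a median of -0.0045. In striatum 6 were above and 4 below, with a median of 0.0088, and without PON2-deficient male 5 only 2 (Pdss1 and Coq4) were above and 8 below, with a median of -0.037, none of them called. The balance of signs in striatum thus rests on 1 library. The medians over all genes, with every library kept, were 0.00090 in cerebellum, 0.0098 in striatum and -0.00056 in cortex. The striatum median over all genes without male 5 was not computed, so the 8 below 0 have no matching background. The 95% intervals reached from -0.26 to 0.24 over the members in cerebellum, from -0.37 to 0.33 in striatum and from -0.29 to 0.24 in cortex. Only the intervals of Pdss1 and Coq3 in cerebellum left out 0.

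**Figure D4:**
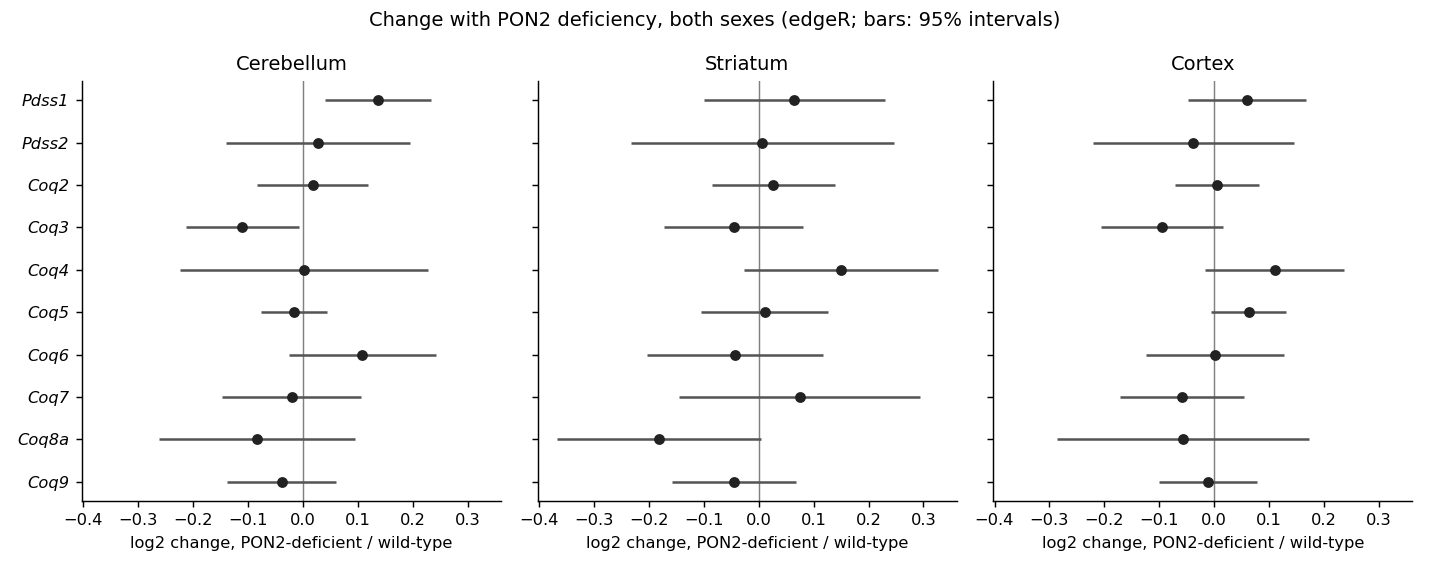
Log2 change of each member in PON2-deficient against wild-type mice, both sexes together, with 95% intervals from edgeR. In cerebellum the interval of Pdss1 lies above 0 and that of Coq3 below 0, and neither passed after adjustment.

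Within the tail synthase, Pdss1 had the smallest p of the 10 in cerebellum. It averaged 15.6 ± 1.18 CPM in PON2-deficient cerebella and 14.2 ± 1.004 CPM in wild-type cerebella (SD, n = 10 each), a log2 change of 0.14 (SE 0.046, edgeR adjusted p = 0.262). Most of the difference in means came from the males. The 5 PON2-deficient males had 14.9, 18.4, 15.3, 16.3 and 16.5 CPM, and the 5 wild-type males had 14.7, 13.7, 12.5, 15.02 and 13.1 CPM. All but the lowest PON2-deficient male were above all wild-type males, and that one lay just under the highest of them (log2 0.24, SE 0.065, edgeR adjusted p = 0.175). DESeq2 gave 0.24 and called it (adjusted p = 0.0372), so the call depends on the tool. The share of all genes that DESeq2 called in male cerebellum was not computed. PON2-deficient females had 14.9, 14.7, 14.5, 15.4 and 15.3 CPM, against 14.0, 15.1, 15.7, 13.6 and 14.9 CPM in wild-type females. Their ranges overlapped (log2 0.030, SE 0.066, edgeR adjusted p = 0.985). The male effect minus the female effect was 0.21 (SE 0.093, edgeR adjusted p = 0.967).

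The summed level of 10 choroid plexus markers varied in the same cerebellum libraries, at 34.2 to 2679.5 CPM in PON2-deficient mice (median 805) and 562 to 2236 CPM in wild-type mice (median 1413). With the mean of these markers in the model the log2 change of Pdss1 over both sexes was 0.12 (edgeR adjusted p = 0.387). In striatum and cortex Pdss1 had log2 changes of 0.065 and 0.060, both with intervals across 0. Its partner Pdss2 had log2 changes of 0.027 in cerebellum, 0.0067 in striatum and -0.038 in cortex. Both signs occurred, and each change was smaller than its SE. Without striatum PON2-deficient male 5, the striatum changes were 0.094 for Pdss1 and -0.064 for Pdss2.

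**Figure D5:**
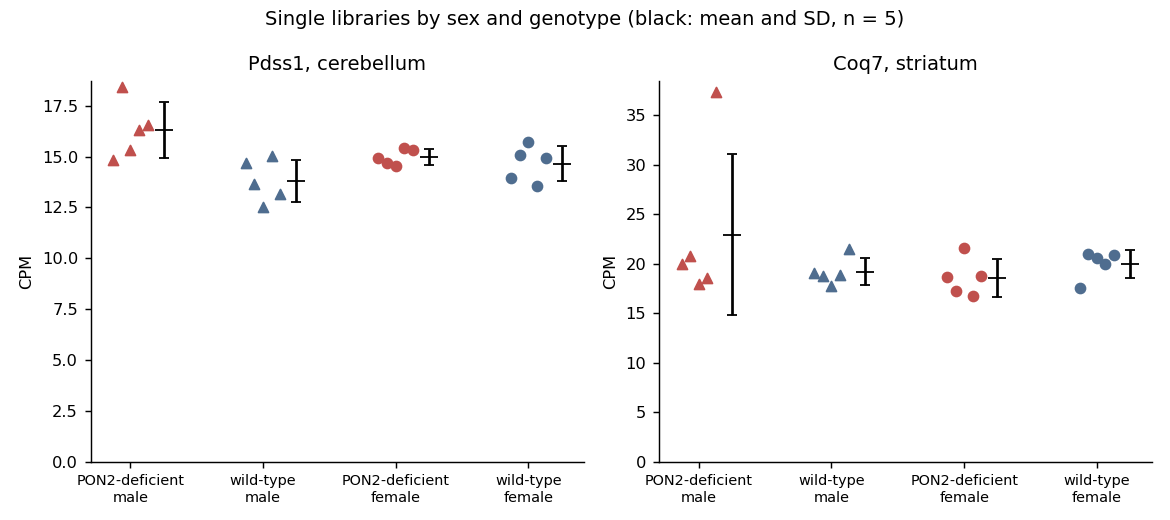
CPM of Pdss1 in cerebellum and of Coq7 in striatum for each library, PON2-deficient left of wild-type within each sex, with mean and SD (n = 5). Most PON2-deficient males lie above the wild-type males for Pdss1, and 1 PON2-deficient male stands at 37.3 CPM for Coq7.

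Coq2 averaged 42.1 ± 2.44 CPM in PON2-deficient and 41.6 ± 3.72 CPM in wild-type cerebella, 49.6 ± 5.75 CPM in PON2-deficient and 48.7 ± 3.59 CPM in wild-type striata, and 56.9 ± 3.40 CPM in PON2-deficient and 56.7 ± 3.52 CPM in wild-type cortices (SD, n = 10 each). These differences were smaller than the spread between mice of a genotype, with log2 changes of 0.018, 0.027 and 0.0050. Without PON2-deficient male 5 the striatum change was -0.0093.

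Of the genes for ring hydroxylases and methyltransferases, Coq3 had lower means in PON2-deficient mice in all 3 regions, and none passed. PON2-deficient cerebella held 14.7 to 17.8 CPM of Coq3 (median 16.2), against 14.7 to 19.9 CPM in wild-type cerebella (median 17.3). The lowest values of both genotypes were alike and the highest were wild-type (log2 -0.11, SE 0.049, edgeR adjusted p = 0.409). In male cerebellum the 5 PON2-deficient mice had 16.7, 14.7, 16.97, 16.2 and 15.3 CPM, against 18.2, 17.7, 16.6, 19.9 and 18.7 CPM in the wild-type mice. Only the lowest wild-type male lay within the PON2-deficient range (log2 -0.19, SE 0.070, edgeR adjusted p = 0.327). In striatum and cortex the log2 changes of Coq3 were -0.046 (SE 0.061) and -0.095 (SE 0.053), and the striatum value was -0.046 without PON2-deficient male 5 as well.

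Coq5, the C-methyltransferase gene, had log2 changes of -0.016 in cerebellum, 0.011 in striatum and 0.063 in cortex (SE 0.029, 0.055 and 0.033). Its cerebellum means lay on opposite sides in males and females. PON2-deficient males held 39.9, 36.7, 35.9, 36.1 and 37.4 CPM and wild-type males 37.6, 41.1, 40.05, 39.6 and 38.4 CPM, while PON2-deficient females held 40.1, 38.8, 39.5, 38.03 and 39.2 CPM and wild-type females 39.1, 36.5, 37.05, 37.8 and 39.1 CPM. All 4 ranges overlapped, and the male effect minus the female effect was -0.12 (SE 0.058, edgeR adjusted p = 0.967). The hydroxylase gene Coq6 had log2 changes of 0.11 in cerebellum (SE 0.064, edgeR adjusted p = 0.568), -0.043 in striatum and 0.0017 in cortex. Without PON2-deficient male 5 the striatum changes were -0.021 for Coq5 and -0.079 for Coq6.

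Coq7, the other hydroxylase gene, had its outlying value in striatum. The 5 PON2-deficient males had 19.97, 20.8, 17.99, 18.5 and 37.3 CPM of Coq7, against 19.1, 18.8, 17.8, 18.9 and 21.5 CPM in wild-type males. The value of 37.3 CPM belonged to male 5, the library that stood apart, and the other 4 lay within the wild-type range. The log2 change over both sexes was 0.075 (SE 0.11, edgeR adjusted p = 0.995) with that library and -0.046 (SE 0.056, edgeR adjusted p = 0.852) without it, so its sign rests on 1 library. In cerebellum and cortex the log2 changes of Coq7 were -0.021 and -0.059.

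Among the partner proteins, Coq4 had a higher mean in PON2-deficient mice in striatum and cortex and a close one in cerebellum. Striata of PON2-deficient mice held 12.9 to 19.1 CPM (median 14.4), against 10.5 to 15.98 CPM in wild-type striata (median 13.7). The ranges overlapped (log2 0.15, SE 0.085, edgeR adjusted p = 0.995), and without PON2-deficient male 5 the log2 change was 0.16. Cortices held 13.8 to 17.7 CPM in PON2-deficient mice and 12.8 to 17.1 CPM in wild-type mice (log2 0.11, SE 0.061, edgeR adjusted p = 0.511). In cerebellum the log2 change was 0.0011 (SE 0.11).

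Coq8a had lower means in PON2-deficient mice in all 3 regions. Its striatum values were 23.4 to 41.3 CPM in PON2-deficient mice (median 35.6), against 33.5 to 45.9 CPM in wild-type mice (median 40.3). The lowest 4 values were PON2-deficient, and the lowest of all was male 5 (log2 -0.18, SE 0.089, edgeR adjusted p = 0.995). Without male 5 the log2 change was -0.13 (SE 0.073, edgeR adjusted p = 0.634). In cerebellum and cortex it was -0.084 (SE 0.086) and -0.057 (SE 0.11). Coq9 had log2 changes of -0.039 in cerebellum, -0.045 in striatum and -0.011 in cortex, each smaller than its SE, and -0.029 in striatum without PON2-deficient male 5.

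Taken sex by sex, edgeR called 0 of 10 members in PON2-deficient against wild-type mice in every group. The share of all genes called was 0.016% in male and 0.00534% in female cerebellum, 0.00527% in male and 0.00527% in female striatum, and 0.148% in male and 0.00527% in female cortex. At an unadjusted p under 0.05 there were 2 members in male cerebellum (Pdss1 and Coq3, against 10.6% of all genes) and 0 in the other groups. With the replicate block, which pairs equally numbered libraries, Coq8a was under 0.05 in male striatum as well (log2 -0.23, edgeR adjusted p = 0.665). Without the block and without PON2-deficient male 5 it was at log2 -0.11 there (edgeR unadjusted p = 0.329). The share of all genes under 0.05 with the block was not computed. Without the block, it was 5.16% in female cerebellum. It was 5.96% in male and 4.08% in female striatum, and 14% in male and 6.6% in female cortex. DESeq2 called Pdss1 in male cerebellum and 0 members elsewhere, and limma on the deposited values called 0. The shares of all genes called are those of edgeR and were not computed for these tools. The male effect minus the female effect was called for 0 of 10 members in each region, as for 0% of all genes in cerebellum, striatum and cortex. Unadjusted, 2 members (Pdss1 and Coq5) were under 0.05 in cerebellum and 0 in striatum and cortex. The shares of all genes were 4.73%, 4.31% and 9.56% in these 3 regions. With the replicate block 0 members were under 0.05 in each region.

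Males and females, taken over both genotypes, differed in 0 of 10 members by edgeR in each region, against 0.118% of all genes in cerebellum, 0.105% in striatum and 0.0896% in cortex. Coq2 in striatum came closest, at 51.9 ± 4.74 CPM in males and 46.4 ± 2.62 CPM in females (SD, n = 10 each). Males held 46.7 to 63.4 CPM and females 43.2 to 50.7 CPM, with the highest male being PON2-deficient male 5 (log2 0.16, SE 0.054, edgeR adjusted p = 0.448). Without male 5 the log2 difference was 0.12 (edgeR adjusted p = 0.372). Without the replicate block this was the only value under 0.05 unadjusted among the members in these 3 comparisons. The shares of all genes were 7.24% in cerebellum, 7.82% in striatum and 10.5% in cortex. With the block, Coq2 was under 0.05 in cortex too, where males were lower (log2 -0.076, edgeR adjusted p = 0.399). The share of all genes with the block was not computed. DESeq2 and limma on the deposited values called 0.

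The effect of PON2 deficiency was also compared between regions. edgeR called 0 of 10 members for the effect in cerebellum minus that in cortex (0.0147% of 20387 genes), for striatum minus cortex (0% of genes) and for cerebellum minus striatum (0.00981% of genes). Unadjusted, 0 of 10 were under 0.05 in each, against 4.15%, 6.3% and 5.97% of all genes in the same order, and DESeq2 and limma on the deposited values called 0. Without striatum PON2-deficient male 5 the last count was 1 of 10, for Coq6, and 0 were called. The share of all genes without that library was not computed. For Pdss1 the effect in cerebellum minus that in cortex was 0.074 (SE 0.080), and for Coq6 the effect in cerebellum minus that in striatum was 0.15 (SE 0.096) with that library and 0.19 (SE 0.093, edgeR adjusted p = 0.752) without it.

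Neighbouring genes in 3 lists were read from the same fits. One held 10 paralogs and accessory factors of coenzyme Q synthesis, one 9 genes of the mevalonate pathway that supplies the tail, and one 14 genes for enzymes that reduce or use coenzyme Q outside complexes I and III. For PON2 deficiency over both sexes, edgeR, DESeq2 and limma on the deposited values called 0 genes of each list in cerebellum, striatum and cortex. In cerebellum 2, 0 and 1 genes of these lists had an unadjusted p under 0.05 by edgeR, in striatum 0, 0 and 0, and in cortex 1, 1 and 3, against 11.1%, 4.94% and 11.4% of all genes in these regions. Their median log2 changes were -0.0067, 0.034 and -0.013 in cerebellum, 0.034, 0.047 and 0.021 in striatum, and 0.018, 0.031 and -0.040 in cortex, in that order of lists. The smallest p in cerebellum belonged to Etfb, a subunit of the electron transfer flavoprotein (28.6 ± 3.13 CPM in PON2-deficient and 32.2 ± 2.33 CPM in wild-type cerebella, log2 -0.17, SE 0.059, edgeR adjusted p = 0.270). Coq10b, a gene for a lipid-binding protein of the START family, had log2 changes of 0.20 in cerebellum, 0.14 in striatum and 0.13 in cortex (edgeR adjusted p = 0.353, 0.995 and 0.548). Without striatum PON2-deficient male 5 its striatum change was 0.11.

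In the same comparison Pptc7, a mitochondrial phosphatase gene, had a log2 change of 0.080 in cerebellum, and Fdx2, a ferredoxin gene, one of 0.15 in striatum that was -0.013 without PON2-deficient male 5. Coq10a stood at -0.079 in cortex. Of the mevalonate genes, Acat2 had -0.052 in cerebellum and 0.073 in striatum, Fdps 0.096 in striatum and Mvd 0.074 in cortex. Of the enzymes that use coenzyme Q, Nqo1, a quinone reductase, had -0.17 in cerebellum and -0.26 in cortex (edgeR adjusted p = 0.462 and 0.326), Sdhd -0.076 in cortex, and Etfb and Sdha 0.18 and 0.090 in striatum. None passed the threshold, and without striatum PON2-deficient male 5 the striatum values of Acat2, Fdps, Etfb and Sdha were 0.0098, 0.0048, 0.036 and 0.042.

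Between cerebellum and cortex edgeR called 79.6% of all genes (40.1% higher and 39.5% lower). Of the 14 genes that use coenzyme Q, 11 were higher and 3 lower in cerebellum (median log2 0.30, against 0.0029 over all genes). Nqo1 was at 7.63 ± 1.09 CPM in cerebellum and 3.22 ± 0.611 CPM in cortex (SD, n = 20 each, log2 1.25, edgeR adjusted p = 3.88e-23). Etfa, for the other subunit of the electron transfer flavoprotein, its dehydrogenase Etfdh and the succinate dehydrogenase gene Sdha were higher by log2 0.71, 0.41 and 0.43. Of the 9 mevalonate genes, 1 was higher and 8 lower in cerebellum (median log2 -0.55). Hmgcs1 led with 142 ± 15.1 CPM in cerebellum and 298 ± 21.9 CPM in cortex (log2 -1.07, edgeR adjusted p = 4.88e-28), and Acat2 and Fdps differed by log2 -0.72 and -0.70. Fdps makes the short isoprenoid that the tail synthase extends.

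Of the 10 accessory genes, 6 were higher and 3 lower in cerebellum than in cortex (median log2 0.13). The ferredoxin reductase gene Fdxr was at 21.0 ± 3.89 CPM in cerebellum and 9.86 ± 1.75 CPM in cortex (log2 1.09, edgeR adjusted p = 1.74e-17). Fdx2, whose product passes electrons from that reductase to Coq6, went the other way, at 13.03 ± 1.05 CPM in cerebellum and 31.4 ± 1.75 CPM in cortex (log2 -1.27, edgeR adjusted p = 3.27e-26). Coq8b, the paralog of Coq8a, was lower in cerebellum as well (11.8 ± 1.32 CPM, against 19.5 ± 1.90 CPM in cortex, log2 -0.73, edgeR adjusted p = 6.62e-17), while Coq8a was higher there. Pptc7 was higher by log2 0.44.

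Between striatum and cortex edgeR called 2 accessory genes higher and 4 lower, and 1 mevalonate gene higher and 7 lower in striatum. It called 10 users of coenzyme Q higher and 1 lower. Of all genes 57% were called (28.8% higher and 28.2% lower). The lists' median log2 differences were -0.11, -0.23 and 0.14, against 0.0054 over all genes. Pptc7 led with 112 ± 9.86 CPM in striatum and 65.6 ± 3.36 CPM in cortex (log2 0.77, edgeR adjusted p = 2.28e-29). Gpd2, the glycerol phosphate dehydrogenase gene, was the 1 user that was lower (log2 -0.50). Between cerebellum and striatum edgeR called 5 accessory genes higher and 4 lower, and 1 mevalonate gene higher and 5 lower in cerebellum. It called 7 users higher and 2 lower. Of all genes 79.8% were called (39.7% higher and 40.2% lower). The medians of the lists were 0.083, -0.17 and 0.14, against -0.0029 over all genes.

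Among themselves the members shared little of their variation. After the group means were removed, the 45 pairs of members had a median Pearson r of 0.066 over 60 libraries, from -0.48 (Pdss1 with Coq5) to 0.46 (Pdss2 with Coq6), and a median of 0.082 without striatum PON2-deficient male 5. The libraries of a region share their scaling, so these are descriptions. The within-group SD on the log2 scale ran from 0.081 for Coq5 and 0.10 for Coq2 to 0.22 for Pdss2 and 0.23 for Coq8a.

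Over all 60 libraries, the genes whose log2 CPM followed Coq4 most closely among 15979 genes averaging 1 CPM or more were Lrrc75a (r = 0.89), Rgs19 (r = 0.89) and Arhgef4 (r = 0.88). Each was lowest in cerebellum, as Coq4 was, with Arhgef4 at 87.6 CPM in cerebellum, 178 CPM in striatum and 201 CPM in cortex. Within a region the likeness was lower: for Lrrc75a r was 0.58 over the 20 cerebellum libraries, 0.48 in striatum and 0.11 in cortex. The likeness over all libraries thus includes the differences between region means.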

How the data were processed

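Total RNA of pulverised tissue was sequenced as 150 nt paired reads, per the labels' protocols. The authors deposited expected counts per gene, log2 CPM values and precision weights (a score per gene and library); the submitters' processing notes name Salmon, edgeR and limma, while no source used here gives their versions, a genome build or an annotation. The deposited log2 values equal voom's formula within 5.33e-14. Gene names and positions came from GENCODE M21 (99.9% of IDs matched, all 10 members among them). Upstream windows came from RefSeq (GRCm38.p6). The 11 windows covered Coq3 and Coq8a more than once and did not include Coq5.

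Expected counts were rounded to whole numbers and tested with edgeR 4.0.16 in R 4.3.3 (TMM scaling, filterByExpr, quasi-likelihood F test, 2-sided), in 1 fit per region over 20 libraries and, between regions, in 1 fit over 60 libraries. Adjustment was by Benjamini-Hochberg over all genes tested, with a threshold of 0.05, and intervals are 95%. CPM use TMM-scaled totals, and the totals before scaling were 26091911 to 28125224 counts. For the members, mean counts were 237 to 1513 per library, here scaled by library totals without TMM factors. On these counts Poisson counting error alone gave a CV of 2.57 to 6.49%, against 3.32 to 18.96% between libraries of a group. The values were close for Pdss1 in cortex and Coq5 in cerebellum. The labels do not say whether each library of a group is a separate mouse, and p-values measure the spread between these libraries. The highest Pearson r between libraries was 0.986, and none were merged.

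Alternatives were DESeq2 1.42.0, RLE scaling, no filter, the deposited log2 values and weights in limma 3.58.1, 1 fit over all libraries, the choroid plexus marker mean or transcript length slope as a covariate, a replicate block, and each library left out. The tests were checked on simulated data. Equal numbers deviated together in every pair of striatum males (r 0.111 to 0.495). The labels state no pairing, so the main tests used no block. The block, fitted as an alternative in every region, changed no call of a member.

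The members and the lists, markers, motifs and tests were chosen with earlier results of these data known. Named genes were the members, Pon2, up to 4 called genes of each list with the smallest p (or 2 where none was called), and the 3 genes most like the member with the largest region difference. A gene that this rule names is not reported here. Trub2 and the other overlapping genes are named for their position.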

Additional observations from a re-analysis of the deposited data

Results flagged for a closer look

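Of 120 groups of 5 libraries (10 members in 12 groups), 7 held a library whose gap to the nearest other exceeded 0.71 of the group's range, and chance gives about 1 group in 20. All 7 were the highest of their group. The widest gap was that of Coq7 in striatum PON2-deficient male 5, at 37.3 CPM against 18.0 to 20.8 CPM in the other 4, in the library that stood apart on transcript length and deposited weight. Its part in the value was not tested. Coq8a was at 57.0 CPM in cerebellum PON2-deficient female 5 (others 38.7 to 43.5), and Pdss2 at 10.6 CPM in cerebellum PON2-deficient female 3 (others 7.15 to 7.93). In wild-type mice, Pdss2 was at 9.18 CPM in cerebellum male 2 (others 8.01 to 8.28), Coq5 at 37.6 CPM in striatum male 5 (others 31.3 to 32.5), Coq2 at 50.7 CPM in striatum female 5 (others 44.4 to 45.9) and Coq3 at 17.3 CPM in cortex female 3 (others 14.3 to 15.1).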

How the results depend on the processing

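In the genotype comparisons edgeR's count of 0 members called held under all 8 other settings and all 20 fits with a library left out, except that DESeq2 called 1 (Pdss1) in male cerebellum. The count was 10 for cerebellum against cortex under other settings and 9 to 10 with libraries left out, 6 to 7 and 5 to 7 for striatum against cortex, and 9 throughout for cerebellum against striatum. In striatum against cortex, Coq4 passed with the deposited log2 values (log2 -0.15, adjusted p = 0.0246) and Coq5 with the length slope (0.054, adjusted p = 0.0331). Coq4 also passed without wild-type male 4, wild-type male 5 or PON2-deficient female 1 (adjusted p = 0.0451, 0.0267 and 0.0153), and Coq5 without wild-type female 3 (adjusted p = 0.0263). With mean in place of longest transcript lengths all 30 levels per kilobase rose by more than their SD. The mean length was shorter for every member, so this rise was fixed by the annotation. Only the order of the members could inform.

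Signs turned for the changes below, none of which edgeR called, and the cause was not tested. In edgeR the largest of them were 0.15 for Fdx2 and 0.075 for Coq7 in striatum. With the choroid plexus mean, Coq2 was at -0.015 and Coq6 at -0.0018 in cortex, and Coq2 at -0.0023 and Coq4 at -0.0025 in cerebellum. With the length slope, Coq7 was at 0.0032 and Coq9 at 0.015 in cortex, Pdss2 at -0.017 in striatum, and Coq4 at -0.013 and Coq7 at 0.034 in cerebellum. With the deposited values, Coq8a was at 0.011 in cortex, Pdss2 at -0.0016, Coq2 at -0.032, Coq5 at -0.013, Coq7 at -0.052 and Fdx2 at -0.012 in striatum, Coq4 at -0.031 and Coq7 at 0.014 in cerebellum, and Coq6 at -0.022 for striatum against cortex.

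With the replicate block, Pdss2 was at -0.0031 in striatum and Coq4 at -0.0018 in cerebellum, and no call changed. Coq8a came under an unadjusted 0.05 with it in striatum and in striatum males, where 0 members did without it. So did Coq2 for males against females in cortex (log2 -0.076, edgeR unadjusted p = 0.0340). Coq3 in cerebellum and the male minus female effects of Pdss1 and Coq5 there no longer did (edgeR unadjusted p = 0.0676, 0.0600 and 0.0907). Shares of all genes under 0.05 with the block were not computed. Apart from striatum males, some equally numbered pairs correlated at or under 0.1 in each comparison of genotypes. The labels state no pairing, and the main fits used no block in any region. Between regions, every pair exceeded 0.1 only for cerebellum and cortex of wild-type females (0.105 to 0.191), and a block for equal numbers changed no call of a member.

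With libraries left out in turn, ranges crossed 0 in cortex for Coq2 (-0.015 to 0.023), Coq6 (-0.029 to 0.038), Coq8a (-0.11 to 0.011) and Coq9 (-0.037 to 0.0076). In striatum they did for Pdss2 (-0.064 to 0.055), Coq2 (-0.0093 to 0.047), Coq5 (-0.021 to 0.035), Coq7 (-0.046 to 0.11) and Fdx2 (-0.013 to 0.19). In cerebellum they did for Pdss2 (-0.025 to 0.063), Coq2 (-0.0082 to 0.040), Coq4 (-0.075 to 0.070), Coq7 (-0.045 to 0.024) and, in females, Coq3 (-0.080 to 0.013). For Coq7 in striatum against cortex the range was -0.075 to 0.012. Counting error was close to the spread between libraries for some members, such as Pdss1 in cortex (CV 6.27%, against 6.67%).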
